A study of Rattus norvegicus with 24 samples.

Results

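Adrenomedullin (Adm) and adrenomedullin 2, or intermedin (Adm2), are secreted peptides of the calcitonin family. They act on the receptor Calcrl, which reaches the cell surface and takes its ligand preference only together with one of the receptor activity-modifying proteins Ramp1, Ramp2 and Ramp3. Calcrl with Ramp1 forms the receptor for calcitonin gene-related peptide, and Calcrl with Ramp2 or Ramp3 forms the adrenomedullin receptors, which raise cyclic AMP and are known in the kidney for widening vessels and for increasing sodium and water excretion.

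These 6 genes were described in kidney cortex and kidney medulla of rats on a lithium diet, a model of lithium nephropathy. They were taken by gene symbol from the array annotation, and each had 1 transcript cluster, among 14324 genes with a named cluster and 28894 clusters in all. The clusters were 10898556 for Adm2, 10709875 for Adm, 10846762 for Calcrl, 10925365 for Ramp1, 10738341 for Ramp2 and 10774115 for Ramp3. The group was chosen by the measured difference of Adm2 between diets in medulla, which is therefore given with its error and without a test.

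The lithium group was 6 male Wistar rats given food with 40 mmol lithium per kg for 7 days and then 60 mmol per kg, up to 6 months in all, with access to a salt block. The control group was 6 male Wistar rats on normal food for the same time. Cortex and medulla of each animal were hybridised to Affymetrix whole-transcript arrays, 24 in all. Whole tissue was used, so that each value mixes all cell types of the cortex or of the medulla.

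The values are log2 signal intensities, in which a difference of 1 is a factor of 2. The array medians were 6.12 to 6.22 in medulla and 5.75 to 5.83 in cortex. In control rats, all 8 proximal tubule genes examined were lower in medulla than in cortex (median difference -3.02), and all 7 inner medulla genes were higher (0.65), against 0.26 over all clusters. Of the 7, Aqp1 (10.87 in medulla and 10.70 in cortex) and Slc6a6 (8.73 and 8.55) were higher by less than that 0.26. The cortex array of lithium animal 17 equalled the mean of the other lithium cortex arrays to within 8e-05 on the log2 scale and added no value of its own, so cortex has 5 lithium samples. Scan date had been removed from the values, and the arrays fell into scan groups that the fits below include. Only genes that reached a log2 level of 6 on 4 or more of a tissue's 12 arrays were tested, and all 6 genes did so in both tissues.

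**Figure D1:**
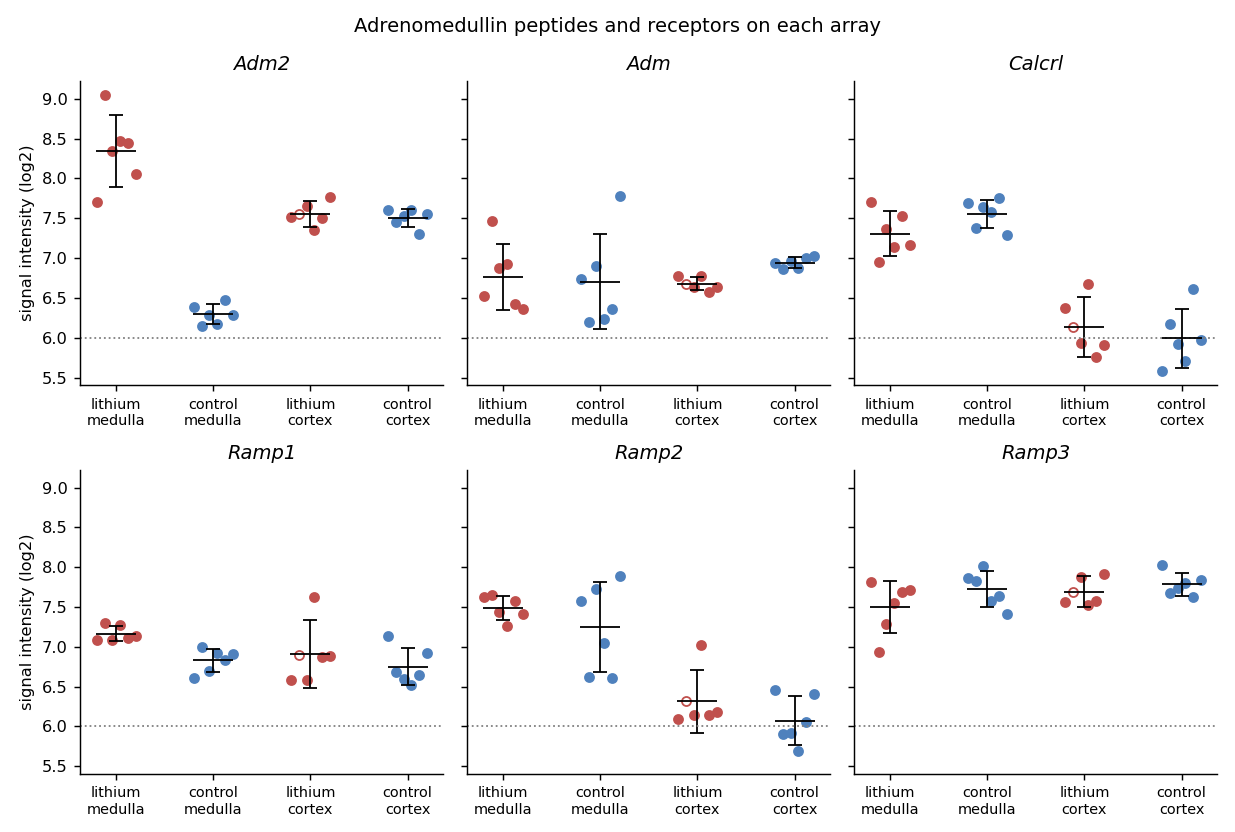
Log2 signal intensity of each gene (vertical axis) on every array, with lithium (red) left of control (blue) in medulla and in cortex; bars are the group mean and SD, the dotted line is the level of 6 used by the filter, and the open circle is the cortex array of lithium animal 17, which is left out of the mean. Adm2 in lithium medulla (7.70 to 9.05) lies above all 6 control medulla arrays (6.15 to 6.48), while its cortex arrays overlap.

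Adm2 differed between the diets in medulla and much less in cortex. In medulla the lithium arrays had a lowest value of 7.70, a median of 8.40 and a highest value of 9.05, against 6.15, 6.29 and 6.48 in control arrays. Every lithium array lay above every control array, and the lithium arrays spread more widely. The means were 8.34 ± 0.45 in lithium medulla and 6.29 ± 0.13 in control medulla (SD, n = 6 each), a log2 difference of 2.05 (SE 0.19, 95% interval 1.63 to 2.47), or 4.14-fold. This was the difference of rank 9 from the top among 16025 clusters tested. Within the 3 scan groups of medulla, it was 2.10, 2.18 and 1.87.

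In cortex, Adm2 had a lowest value of 7.35, a median of 7.52 and a highest value of 7.77 in the 5 lithium arrays, against 7.30, 7.54 and 7.60 in control arrays. The groups overlapped. The log2 difference was 0.05 (SE 0.10, 95% interval -0.17 to 0.28, limma adjusted p = 0.934), and it was -0.01, -0.07 and 0.21 within the scan groups. The difference in medulla exceeded that in cortex by 2.00 on the log2 scale (SE 0.23, 95% interval 1.51 to 2.48), rank 4 from the top among 16388 clusters.

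The order of the tissues also turned round with diet. Arrays with the same number in their titles were taken as 1 animal. Medulla minus cortex of Adm2 within an animal was 0.65 ± 0.41 in lithium rats (SD, n = 5, 0.18 to 1.12) and -1.21 ± 0.20 in control rats (n = 6, -1.43 to -0.82). All 6 control medulla arrays lay below the lowest cortex array of either diet (7.30), and 5 of 6 lithium medulla arrays lay above the highest (7.77). The array medians of these animals were 0.33 to 0.43 higher in medulla than in cortex, and lithium animals 6 (0.18) and 22 (0.29) lay below their own offset of 0.41, so that relative to the array medians the order turned in 3 of the 5 lithium rats.

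Marker genes of other cells also differed between the diets in the same medulla arrays. Of 7 intercalated cell genes tested, which mark the acid and base transporting cells of the collecting duct, 3 rose and none fell with lithium: Oxgr1, a receptor for oxoglutarate, by 2.13 (SE 0.43, adjusted p = 0.0411), Slc4a9, an anion exchanger, by 1.99 (SE 0.32, adjusted p = 0.0156), and Atp6v1g3, a proton pump subunit, by 1.10 (SE 0.20, adjusted p = 0.0296). At an unadjusted limma p under 0.05 all 7 were higher, and their median log2 difference was 1.75. Of all clusters tested in medulla, 1.19% passed the adjusted threshold in either direction. Their share at the unadjusted level in medulla is not given here, so unadjusted counts of this and other lists there have no background. The mean of the intercalated cell list was 9.12 to 10.02 in lithium and 6.19 to 8.82 in control medulla. The lithium arrays were thus high, as a group, for both this list and Adm2. Within the lithium group the order differed. Animal 17 had the highest Adm2 (9.05) with a list mean of 9.12, and animal 22 the highest list mean (10.02) with Adm2 at 8.06. Animal 6 was lowest for both (9.12 and 7.70). With 1 array left out, 0 to 4 of the 7 genes passed, fewer than 3 without control animal 13, 15 or 16 or lithium animal 17, 18, 19, 21 or 22.

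Of 5 macrophage genes, 3 rose in lithium medulla (Cd68, Mrc1 and C1qa), but 1 or none passed without any 1 array other than those of lithium animal 6 and control animal 29. The mean of that list was 7.31 to 7.84 in lithium and 6.05 to 7.26 in control medulla. Mrc1 had a mean of 6.36 in lithium and 5.36 in control medulla. The latter is below the filter level of 6, so its difference starts from a low signal. The proximal tubule list, high in cortex, had a mean of 6.66 to 7.99 in lithium and 7.43 to 8.82 in control medulla, with none of 8 genes past the limma threshold, 4 lower at an unadjusted p under 0.05 and 1 past an ordinary unmoderated test without scan groups after adjustment. The inner medulla and thin limb list had a mean of 9.07 to 9.58 in lithium and 9.57 to 10.05 in control medulla, with a median log2 difference of -0.50 over 6 genes. None passed the limma threshold or the unmoderated test after adjustment. At an unadjusted limma p under 0.05, 2 were lower (Slc14a2, a urea transporter gene, -1.29, and the aldose reductase gene Akr1b1, -0.99). The difference was positive for 2 of the 6 (Slc6a6, 0.48, and Upk3a, 0.20). Of 3 podocyte genes, Podxl, also made by endothelium, fell in medulla (-1.01, adjusted p = 0.0344). Synpo (0.31, adjusted p = 0.105) and Nphs1 (0.03) were not lower, and the median over the 3 genes was 0.03. The Podxl call was lost without any 1 array other than those of lithium animal 6 and control animal 29. The part of these cells, or of the depth of dissection, in the Adm2 difference was not tested. In whole tissue, a changed number of cells of a type and a changed amount of RNA per cell cannot be told apart.

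The genes whose pattern over the arrays was most like that of Adm2 were sought among 9653 genes, after each gene was centred on its control mean in each tissue. They were the chemokine Ccl28 (Pearson's r = 0.98 over the 23 arrays with values of their own), the nucleotidase Nt5c1a (0.97), the calcium pump Atp2b4 (0.94), the monocarboxylate transporter family member Slc16a6 (0.94) and the immunoglobulin family membrane protein Vsig1 (0.93). These are descriptions, and the centring keeps the difference between diets in the values. With each medulla group centred on its own mean, r was 0.80 for Ccl28, 0.64 for Nt5c1a, 0.68 for Atp2b4, 0.71 for Slc16a6 and 0.50 for Vsig1.

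**Figure D2:**
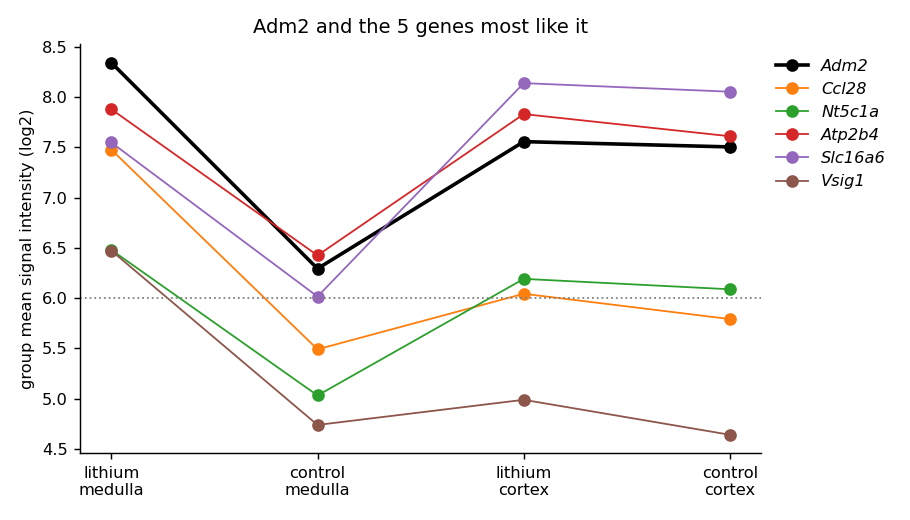
Group mean log2 signal intensity (vertical axis) of Adm2 and the 5 genes most like it (coloured lines) in lithium medulla, control medulla, lithium cortex and control cortex, and the dotted line is the filter level of 6. All 6 genes are higher in lithium than in control medulla, and their cortex means differ by 0.35 or less between the diets. The cortex means of Vsig1 and the control cortex mean of Ccl28 lie below 6.

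Ccl28 was 7.48 in lithium and 5.49 in control medulla (means of 6 arrays each), and 6.04 in lithium and 5.79 in control cortex. Atp2b4 was 7.88 in lithium and 6.43 in control medulla, against 7.83 in lithium and 7.61 in control cortex. The control medulla mean of Ccl28, Nt5c1a (5.03) and Vsig1 (4.74) was below 6, the level used by the filter, so their log2 differences in medulla of 1.99, 1.45 and 1.74 start from low signals. In cortex, Vsig1 (4.99 in lithium and 4.64 in control) and Ccl28 in control rats were also below 6, so their small differences there are between low signals.

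Adm, the other peptide gene, overlapped between the diets in medulla. Its lowest value, median and highest value were 6.36, 6.69 and 7.47 in lithium medulla, against 6.20, 6.55 and 7.78 in control medulla. The overlap was wide, with 1 high array in each (lithium animal 17 and control animal 30). They differed by 0.06 on the log2 scale (SE 0.28, 95% interval -0.57 to 0.68, adjusted p = 0.933), with values of 0.52, 0.32 and -0.67 in the scan groups, which differ in sign.

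In cortex, Adm was lower in lithium rats without passing the threshold. The lithium arrays had a lowest value of 6.58, a median of 6.64 and a highest value of 6.77, against 6.86, 6.95 and 7.03 in control arrays. Every lithium array lay below every control array. The means were 6.68 ± 0.08 in lithium (SD, n = 5) and 6.94 ± 0.07 in control cortex (n = 6), a log2 difference of -0.26 (SE 0.08, 95% interval -0.44 to -0.09), or 0.832-fold. The adjusted p was 0.377 with scan groups in the fit and 0.0272 without them, where 0.588% of clusters passed as lower. Scan date had already been removed from the values, so a fit without scan groups counts more residual degrees of freedom than they hold and gives p-values that are too small. Within the scan groups, the difference was -0.13, -0.22 and -0.40.

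Of the 6 genes, Adm alone had groups that did not overlap in cortex, as did 2.57% of all clusters tested there (0.719% with lithium below control). None of the 6 genes passed the limma threshold in cortex, where 0.574% of clusters did. At an unadjusted p under 0.05, 1 of the 6 did (Adm), as did 7.54% of clusters. Adm also passed without scan groups and by the unmoderated test after adjustment (0.0104). Both of these leave out scan groups and count the array of lithium animal 17 as a value of its own, which makes their p-values too small. The difference of Adm between diets was not shown to differ between medulla and cortex (0.32, 95% interval -0.36 to 1.00, adjusted p = 0.693).

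In the same lithium cortex, 4 of 6 principal cell genes fell, namely the water channel gene Aqp2 (log2 difference -1.46, adjusted p = 0.00391), the sodium channel subunit genes Scnn1g (-1.44, adjusted p = 0.0190) and Scnn1b (-0.87, adjusted p = 0.0443), and Hsd11b2, which inactivates glucocorticoids (-0.90, adjusted p = 0.0114). Without animal 15, 16, 21, 22, 29 or 30, only 1 or 2 of them passed. Of 13 genes of the hypoxia response, to which Adm belongs as a known target, 1 rose in cortex and none fell, namely P4ha1, a prolyl hydroxylase of collagen (0.48, SE 0.09, adjusted p = 0.0356). This call was lost with no filter, after median centring of the arrays, and without animal 6, 15, 16, 18, 21, 22, 29 or 30. In medulla none of 13 passed the threshold, with a median log2 difference of -0.27 against -0.01 over all clusters. Hif1a (-0.50, adjusted p = 0.0827) and the glucose transporter gene Slc2a1 (-0.58, adjusted p = 0.0759) were lower at an unadjusted p under 0.05, the unmoderated test passed 2 of the 13 after adjustment, and the mean of the list was 8.65 to 8.93 in lithium and 8.87 to 9.22 in control medulla. The part of these cells and genes in the Adm values was not tested.

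The promoters of both peptide genes are shown because the groups lay apart for Adm2 in medulla and overlapped widely for Adm. Sequences come from RefSeq (assembly GRCr8) and run from 250 bases before to 50 after the gene start, on the plus strand at chr7:122272558-122272857 for Adm2 and chr1:174179950-174180249 for Adm. Capitals mark matches on either strand to 5 motifs searched, ACGTG (the core of hypoxia response elements), TGACG (part of the cyclic AMP response element), the CCAAT box, the GC box (GGGCGG) and the core of the TATA box (TATAA).
Adm2: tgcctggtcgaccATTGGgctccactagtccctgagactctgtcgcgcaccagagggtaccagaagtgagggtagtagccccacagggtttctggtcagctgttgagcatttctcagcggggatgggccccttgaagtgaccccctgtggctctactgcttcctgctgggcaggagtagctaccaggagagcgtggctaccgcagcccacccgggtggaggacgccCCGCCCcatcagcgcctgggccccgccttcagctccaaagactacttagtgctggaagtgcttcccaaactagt
Adm: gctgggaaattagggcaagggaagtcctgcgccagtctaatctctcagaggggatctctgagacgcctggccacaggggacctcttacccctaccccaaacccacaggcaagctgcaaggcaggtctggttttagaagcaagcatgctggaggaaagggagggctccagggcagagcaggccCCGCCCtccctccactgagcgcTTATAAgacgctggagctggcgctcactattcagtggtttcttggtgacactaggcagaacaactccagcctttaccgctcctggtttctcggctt
The Adm2 window held 1 CCAAT box (from -237 to -233, counted from the start) and 1 GC box (-24 to -19), both on the minus strand. The Adm window held 1 GC box on the minus strand (-68 to -63) and overlapping TATA matches on both strands (between -46 and -41). The hypoxia core and the cyclic AMP motif were in neither window. Of 33469 rat promoters of this length, 19.3% held the hypoxia core, 21.2% the cyclic AMP motif, 37.5% the CCAAT box, 33.1% the GC box and 26.2% the TATA core. The RefSeq table had a promoter for 5 of the 6 genes, all but Ramp2. Among the receptor genes, the Ramp1 window held 3 GC boxes and the Ramp3 window 2.

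Calcrl, the receptor shared by both peptides, did not pass the threshold in either tissue. In medulla its lowest value, median and highest value were 6.95, 7.26 and 7.70 in lithium rats, against 7.29, 7.61 and 7.75 in control rats. The groups overlapped, with the lithium arrays of animals 17, 19 and 22 below all control arrays. The log2 difference was -0.25 (SE 0.14, 95% interval -0.56 to 0.07, adjusted p = 0.362), and it was negative in all 3 scan groups (-0.21, -0.36 and -0.18).

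In cortex, Calcrl was 5.76 to 6.67 in lithium and 5.58 to 6.61 in control rats. The arrays of both groups lay on both sides of the filter level of 6. The log2 difference was 0.14 (SE 0.21, 95% interval -0.33 to 0.61, adjusted p = 0.910), with values of 0.50, 0.49 and -0.45 in the scan groups. Medulla minus cortex of Calcrl was 1.25 ± 0.48 in lithium (SD, n = 5) and 1.56 ± 0.39 in control rats (n = 6), more than the difference of the array medians. The difference between the tissues in the lithium effect was -0.39 (95% interval -0.95 to 0.18, adjusted p = 0.557).

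Calcrl and Ramp2 are abundant in vascular endothelium, so endothelial markers were set beside them. Of 16 markers listed, 11 had a cluster of their own, and in medulla 1 of these rose, the tight junction gene Cldn5 (0.54, SE 0.10, adjusted p = 0.0337), and 1 fell, Emcn, a sialomucin of venous and capillary endothelium (-0.91, SE 0.19, adjusted p = 0.0462). The list had a median log2 difference of -0.42, with 2 of 11 genes positive, and its mean was 8.04 to 8.44 in lithium and 8.28 to 8.80 in control medulla. Without scan groups 1 of the 11 was higher and 6 were lower. With scan groups and 1 array left out, 5 passed without lithium animal 6, 4 without control animal 29, 1 without control animal 1 and none without any other. The part of the endothelium in the Calcrl and Ramp2 values was not tested.

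**Figure D3:**
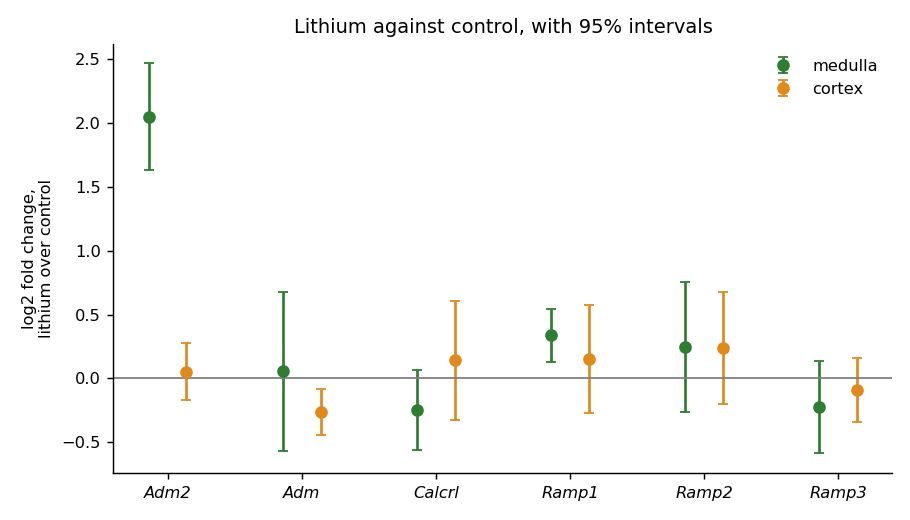
Log2 fold change of lithium over control (vertical axis) for each gene (horizontal axis) in medulla (green) and in cortex (orange), with bars for the 95% intervals from the fits with scan groups. The intervals are per gene and not adjusted for the number of clusters. That of Adm2 in medulla (1.63 to 2.47) is a description, as the group was chosen by this difference. Those of Ramp1 in medulla (0.13 to 0.55) and of Adm in cortex (-0.44 to -0.09) do not reach 0. Neither gene passed the limma threshold there (adjusted p = 0.103 and 0.377).

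Ramp1 was the only RAMP gene whose groups did not overlap in medulla. Its lowest value, median and highest value were 7.08, 7.13 and 7.30 in lithium medulla, against 6.61, 6.87 and 7.00 in control medulla. Every lithium array lay above every control array, by a margin of less than 0.1 at the closest. The means were 7.17 ± 0.09 in lithium and 6.83 ± 0.15 in control medulla (SD, n = 6 each), a log2 difference of 0.34 (SE 0.10, 95% interval 0.13 to 0.55), or 1.26-fold. Its adjusted p was 0.103 with scan groups and 0.0324 without them, where 3.33% of clusters passed as higher and p-values are too small, and the difference was 0.39, 0.37 and 0.26 within the scan groups.

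Adm2, by whose difference in medulla the group was chosen, is left out of the counts here. Of the other 5 genes, 1 (Ramp1) was without overlap in medulla, as were 3.71% of all clusters tested (2.12% with lithium above control). None of the 5 genes other than Adm2 passed the limma threshold in medulla, where 1.19% of clusters did, or for the difference between tissues, where 0.0915% did. At an unadjusted p under 0.05, 1 of these 5 did so in medulla (Ramp1) and none for the difference. The share of all clusters at that unadjusted level is given here only for cortex, so this count cannot be set against a background. Over all clusters in medulla, 133 were higher and 57 lower in lithium rats, and after centring of the arrays on their medians these numbers were 102 and 97.

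In cortex, Ramp1 had a lowest value of 6.58, a median of 6.87 and a highest value of 7.62 in lithium rats (5 arrays), against 6.52, 6.67 and 7.13 in control rats. The groups overlapped, and lithium animal 19 stood above the rest. Their log2 difference was 0.15 (SE 0.19, 95% interval -0.27 to 0.58, adjusted p = 0.884), and -0.05 without that animal. The lithium effect in medulla minus that in cortex was 0.18 (95% interval -0.28 to 0.65, adjusted p = 0.747), so Ramp1 was not shown to differ between tissues.

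Ramp2 was spread widely in control medulla. Its lowest value, median and highest value were 7.26, 7.50 and 7.65 in lithium medulla, against 6.61, 7.31 and 7.89 in control medulla. The lithium arrays all lay inside the range of the control arrays, which covered 1.28 log2 units against 0.38 in lithium. Control animals 1, 15 and 30 were high (7.58, 7.73 and 7.89) and animals 13, 16 and 29 low (6.62, 7.05 and 6.61). The mean of the endothelial list was 8.67, 8.77 and 8.80 in the control medulla of animals 1, 15 and 30, and 8.47, 8.45 and 8.28 in that of animals 13, 16 and 29. The lithium medulla arrays did not keep this order. Animal 17 had the highest Ramp2 (7.65) with the lowest list mean (8.04), and animal 6 the highest list mean (8.44) with Ramp2 at 7.63. The log2 difference of Ramp2 was 0.25 (SE 0.23, 95% interval -0.26 to 0.75, adjusted p = 0.581).

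In cortex, Ramp2 was 6.09 to 7.02 in lithium and 5.69 to 6.46 in control rats. Lithium animal 19 (7.02) was again alone at the top, with the other lithium arrays with values of their own between 6.09 and 6.18. The diets differed by 0.24 on the log2 scale (SE 0.20, 95% interval -0.20 to 0.68, adjusted p = 0.825), and 0.04 without animal 19. Medulla minus cortex of Ramp2 was 1.15 ± 0.52 in lithium (SD, n = 5) and 1.17 ± 0.47 in control rats (n = 6), and the lithium effect in medulla minus that in cortex was 0.0045 (95% interval -0.69 to 0.70, adjusted p = 0.998).

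Markers of several other cells were also high in the cortex of lithium animal 19, and those of tubule cells were low. The mean of 7 smooth muscle and pericyte genes was 8.31 there, against 6.29 to 6.85 on the other lithium arrays with values of their own and 6.21 to 6.84 on control arrays. The mean of 4 lymphatic endothelium genes was 8.27, against 6.39 to 6.92 in control cortex, and that of 11 endothelial genes was 7.48, against 7.03 to 7.26. The macrophage list mean (7.82) was the highest of the cortex arrays. The proximal tubule (10.41), intercalated cell (7.77) and principal cell (7.45) list means were the lowest of the cortex arrays. Calcrl was also highest on that array (6.67), and its log2 difference in cortex was -0.01 without it. The part of these cells in the Ramp1, Ramp2 and Calcrl values was not tested.

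**Figure D4:**
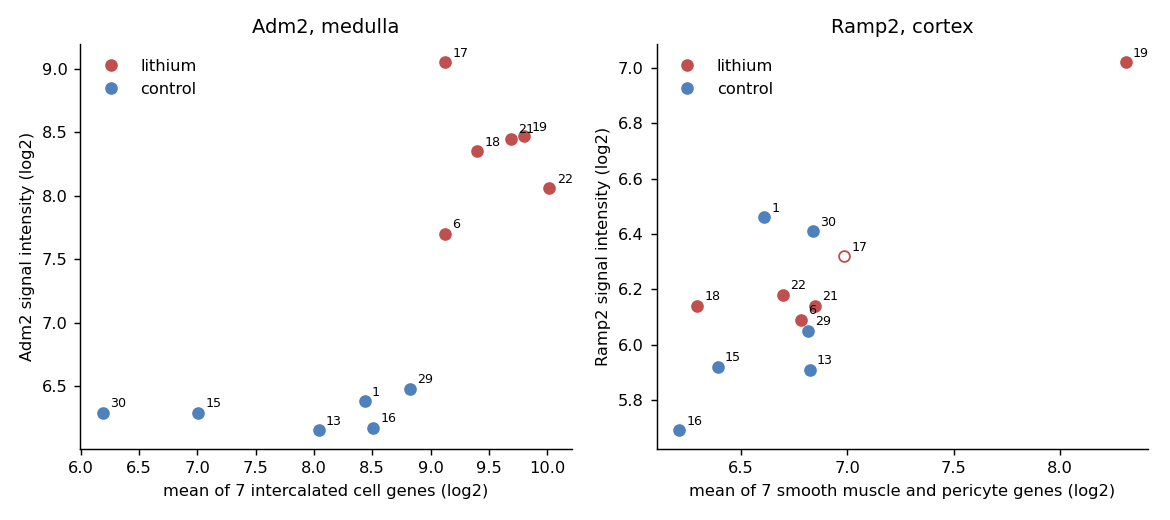
Left, Adm2 log2 signal intensity (vertical axis) against the mean log2 intensity of 7 intercalated cell genes (horizontal axis) on the medulla arrays; right, Ramp2 log2 signal intensity against the mean of 7 smooth muscle and pericyte genes on the cortex arrays. Points are arrays of lithium (red) and control (blue) animals with the animal's number, and the open circle is the cortex array of lithium animal 17. The lithium medulla arrays are high on both axes (list mean 9.12 to 10.02, Adm2 7.70 to 9.05), in a different order on each. Lithium animal 19 stands alone in cortex.

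Ramp3 overlapped between the diets in both tissues. In medulla its lowest value, median and highest value were 6.94, 7.62 and 7.81 in lithium rats, against 7.41, 7.74 and 8.02 in control rats. Lithium animals 17 and 18 lay below all control arrays and the others among them. The log2 difference was -0.23 (SE 0.17, 95% interval -0.59 to 0.14, adjusted p = 0.472), with values of -0.47, -0.38 and 0.17 in the scan groups. In cortex Ramp3 was 7.53 to 7.92 in lithium and 7.62 to 8.03 in control rats, a log2 difference of -0.09 (SE 0.11, 95% interval -0.34 to 0.16, adjusted p = 0.883), and the effects in the tissues differed by -0.13 (95% interval -0.58 to 0.31, adjusted p = 0.816).

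**Figure D5:**
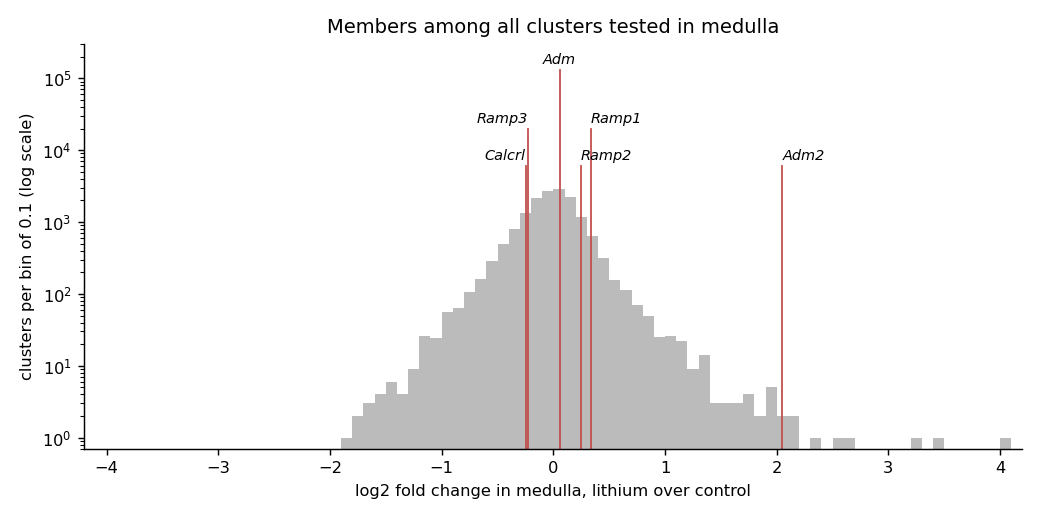
Number of clusters (vertical axis, log scale) by log2 difference between lithium and control in medulla (horizontal axis, bins of 0.1), over the 16025 clusters tested, with a vertical line for each of the 6 genes. Adm2 at 2.05 lies in the upper tail, and the other 5 genes lie between -0.25 and 0.34.

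Over the 6 genes, the median log2 difference was 0.15 in medulla and 0.10 in cortex, against -0.01 and 0.01 over all clusters tested. The medulla median includes Adm2, by whose difference there the group was chosen. The other genes of the calcitonin family and of peptide processing did not pass the threshold. Calca, Calcb and Iapp were below the filter in both tissues. Calcr, the calcitonin receptor, was below it in medulla (means of 5.30 in lithium and 5.65 in control rats). Of 4 genes of that list tested in medulla and 5 in cortex, none passed in limma, at an unadjusted p under 0.05, or by the unmoderated test after adjustment. Among them, Pam, which amidates the peptides to their active form, had a log2 difference of 0.17 in medulla and 0.02 in cortex. Mme, a protease that degrades them, had 0.21 in medulla and -0.16 in cortex, and the scavenging receptor Ackr3 had -0.33 in medulla and 0.25 in cortex.

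Genes that carry the signal of the receptors inside the cell likewise did not pass. Of 17 tested in medulla and 14 in cortex, none passed in limma or by the unmoderated test after adjustment, and at an unadjusted p under 0.05 none did in medulla and 2 did in cortex. Their median log2 difference was -0.06 in medulla and 0.11 in cortex. Gnas, of the same list, was below the filter in both tissues and was not tested. In medulla Adcy3 had -0.51 (SE 0.25) and Prkar2b -0.44 (SE 0.33). The adenylate cyclase gene Adcy5 had 0.37 (SE 0.18) in medulla and 0.27 (SE 0.12) in cortex, Nos3, the endothelial nitric oxide synthase, had 0.02 (SE 0.15) in medulla and 0.32 (SE 0.13) in cortex, and the transcription factor gene Creb1 had -0.10 (SE 0.12) in medulla and 0.23 (SE 0.12) in cortex.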

How the data were processed

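The deposited values are log2 intensities for 28894 clusters. The authors obtained them in Partek, using RMA to correct background, then quantile normalization, a log2 scale and summary by median polish. They removed scan date by analysis of variance, which ties the values of arrays scanned together, and averaged probe sets by cluster. RMA, Partek and rn4 appear in the submitters' processing notes, and no coordinates of the files were used. The arrays are called gene arrays in one place of the methods and exon arrays in another, and the annotation matched is that of the gene array. Arrays have no read depth, and their number limits the precision.

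Platform annotation gave 15097 clusters 1 symbol, 323 several and 13474 none. Where a gene had several clusters, the highest mean over 24 arrays was taken, and clusters with several symbols were not named. Within a tissue, lithium was compared with control by limma 3.58.1 under R 4.3.3, using lmFit and eBayes with treatment and scan group as terms, over clusters that reached 6 on 4 or more of 12 arrays. P-values were adjusted by Benjamini-Hochberg over all clusters, with a threshold of 0.05. As the sources used here give no scan dates, scan groups were recovered from directions without residual variance. By animal, they were {1, 6, 13, 17}, {15, 16, 18, 19} and {21, 22, 29, 30} in medulla, and the same in cortex with animal 17 alone. The fits with scan groups thus leave its cortex array without weight, while fits without them and the unmoderated test count it. The residual degrees of freedom were 8 in medulla and 7 in cortex, against 10 without scan groups, which is more than the adjusted values hold. Medulla minus cortex was an interaction term over 24 arrays. The fits were tested on simulated data, where the fit without scan groups passed unchanged genes too often.

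Cortex and medulla arrays with the same number in their titles were taken to come from 1 animal, which the labels do not state. In 11 animals (without animal 17), the correlation of deviations from the group means was -0.06 to 0.42, and over 0.1 in 6. The animal as a block was an alternative. Other alternatives were no scan groups, no filter, a filter at 7, repeated quantile normalization, median centring, leaving out each array, and an ordinary t-test without scan groups (the unmoderated test). That test is named in the study's summary, whereas its methods state an analysis of variance, and it was also tried at the study's thresholds of p and fold change.

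The 6 genes were all described. Genes like Adm2 were the 5 of highest correlation over all arrays, and up to 4 genes of each list past the threshold were named. Outside this rule, Pam, Mme, Ackr3, Calcr, Calca, Calcb, Iapp, Adcy5, Nos3, Creb1, Hif1a, Slc2a1, Slc14a2 and Akr1b1 were named after their values were seen. So were Synpo, Nphs1, Adcy3, Prkar2b, Gnas, Slc6a6, Upk3a and Aqp1. The members and lists were chosen with earlier results of these data known. Python 3.11.15, pandas 2.3.3, numpy 2.4.6 and matplotlib 3.10.9 were used for promoters and figures.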

Additional observations from a re-analysis of the deposited data

Results flagged for a closer look

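Lithium animal 19 stood apart in cortex for 2 of the RAMP genes. Its Ramp1 value was 7.62, with the next lithium array at 6.88, a gap of 0.714 of the range of the group against a critical value of 0.71. Its Ramp2 value was 7.02, with the next at 6.18, a gap of 0.910 of the range. Of 24 groups looked at, 2 held such an array, and chance gives about 1 in 20.

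The lithium effect on Adm2 differed between medulla and cortex by 2.00 on the log2 scale (95% interval 1.51 to 2.48). This difference follows from the rise in medulla that was known when the gene was chosen, and it has no test.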

How the results depend on the processing

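The log2 differences of the 6 genes kept their sign except as follows. Ramp2 in medulla minus cortex was 0.0045, against -0.00106 with the replicate block (animal as a block, pairing cortex and medulla) and -0.043 after median centring of the arrays. With 1 animal left out at a time, the range crossed 0 for Adm2 in cortex (-0.0091 to 0.11), Calcrl in cortex (-0.014 to 0.32), Ramp1 in cortex (-0.050 to 0.32), Adm in medulla (-0.12 to 0.32), and, in medulla minus cortex, Ramp2 (-0.15 to 0.26) and Ramp3 (-0.28 to 0.0058). Adm2 stayed at 1.87 to 2.21 in medulla, and at 1.82 to 2.14 in medulla minus cortex.

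Adm in cortex (-0.26) passed the threshold without scan groups (adjusted p = 0.0272) and by the t-test (0.0104), and Ramp1 in medulla (0.34) likewise (0.0324 and 0.0357). Both of these tests leave out scan date and so give p-values that are too small. In cortex they also count the array of lithium animal 17. With 1 array left out and scan groups kept, the adjusted p of Ramp1 was 0.0621 to 0.219. Clusters past the threshold were 190 in medulla, and without scan groups 1052, by the t-test 650 after adjustment and 651 at its own thresholds, and 49 to 1061 with 1 array left out, 1061 being without lithium animal 6 (461 higher and 600 lower). Leaving out any array but that of control animal 29 moved this number by over 1.5 times. In cortex they were, in the same order, 79, 288, 296 and 163, and 33 to 88, with shifts of over 1.5 times without animal 15, 16, 21, 22, 29 or 30. For medulla minus cortex they were 15, 357 without scan groups, 9 with median centring, and 6 to 57 (57 without lithium animal 6, and shifts of over 1.5 times also without animal 15, 16, 18, 19, 21, 22 or 30), and 20 with the replicate block, which changed no call of the 6 genes. Alternative clusters of a gene could not be tried, as each gene had 1. The number of arrays limits what could be detected, and p-values measure the spread between animals of 1 experiment.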
